A study of Arabidopsis thaliana with 9 samples.

Results

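Leaf RNA of *Arabidopsis* plants that received artificial low R:FR light, in which far-red LEDs lower the ratio of red to far-red light (R:FR), was compared with leaf RNA of weed-free plants, which received no added far-red. The comparison rests on 6 of the 9 libraries of the series, 3 labelled far-red and 3 labelled weed-free, taken by their labels. The other 3 libraries come from plants beside a surrogate weed, a dense grass that reflects far-red light (biological low R:FR), and are used here to share the estimate of spread and to show where the LED treatment differed. Artificial low R:FR plants grew for 3 weeks at an R:FR of 1.4 and then for 1 week at 0.3, whereas weed-free plants stayed at 1.4 for all 4 weeks. All plants were wild type of the Columbia ecotype, were raised with days and nights of equal length and were 4 weeks old when rosette leaves were taken. Each library pools the leaves of 3 plants, whose roots were kept apart in a tube set in the same mineral filler in both groups. The study's text puts the R:FR of the weed-free plants slightly higher than the labels do. Its methods speak of growth chambers with the biological and the artificial source, of a divider between weed-free and grass-surrounded plants, and of no weed-free plants beside the LEDs, so that chamber and LED treatment may not be told apart. The hour of harvest is not given in the sources used here. The study describes its replicates as independent experiments, the labels only number them 1 to 3, and the p-values measure the spread between these libraries.

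Plants read R:FR through the phytochromes, photoreceptors that red light turns into an active form and far-red light turns back. When neighbouring leaves reflect far-red, less phytochrome B is active, and the PIF transcription factors it normally holds down switch on genes for elongation together with brakes on the same response, such as *HFR1* and *PIL1*. In leaves this shade avoidance is known to go with auxin-driven growth of petioles and with weaker defence through jasmonate, a hormone of wounding and of attack by insects. Values are TPM, a measure of transcripts that scales each gene for its length and each library to the same total. Differences are log2 fold changes on the log2(TPM + 1) scale, artificial low R:FR minus weed-free, which understates the change of genes near 0. A first number in parentheses after TPM values is this log2 difference. A gene passed the test at an adjusted p under 0.05 from limma, with adjustment over all 17179 genes tested. In bulk tissue a lower share of a cell type and less RNA per cell cannot be told apart.

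Artificial low R:FR library 3 stood apart from the other two of its group. Over the tested genes it correlated at 0.975 and 0.972 with artificial low R:FR libraries 1 and 2, which correlated at 0.991 with each other, and at 0.975 to 0.978 with the weed-free libraries. On the first principal component, which holds 54.7% of the variance, the artificial low R:FR libraries were at 55.6, 52.7 and 20.5, the biological ones at -48.3, -30.8 and -38.2 and the weed-free ones at 2.8, 2.4 and -16.7. The replicate 3 library thus lay toward the negative side of replicates 1 and 2 under the LEDs and in weed-free plants. Median coverage of the tested genes was 31.0 to 64.2 per artificial low R:FR library, 26.1 to 47.0 in biological low R:FR and 20.4 to 44.1 in weed-free. Chloroplast genes held 3.6 to 5.1% of the TPM of a library. Because of the third replicate, list counts are given below without and with replicate number as a block and, for most lists, with replicate 3 left out of every group.

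Plants under artificial low R:FR differed from weed-free plants in 675 genes without the block, or 3.93% of the genes tested, of which 456 (2.65%) were higher and 219 (1.27%) lower than in weed-free. At p under 0.05 before adjustment, 1817 genes were higher and 1715 lower. With the replicate block 1472 genes differed (8.57%), of which 826 (4.81%) were higher and 646 (3.76%) lower. The calls nested almost fully, since 671 genes passed both ways, 801 passed only with the block, 4 passed only without it and none changed sign. Called genes differed less in the third pair of libraries than in the other pairs. The median difference of the genes called higher was 0.97, 1.08 and 0.66 in pairs 1, 2 and 3, and that of the genes called lower was -0.99, -0.94 and -0.74. Over all genes tested the median log2 difference was -0.04. With replicate 3 left out of every group 1870 genes (10.9%) were higher and 1195 (6.96%) lower. Counts of list members below are to be read beside these counts over all 17179 genes tested.

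The number of calls depended on which single library was present. Without artificial low R:FR library 3 alone, 980 genes were higher and 1024 lower, and without library 1 or 2 of that group 118 and 92 genes were higher and 39 and 33 lower. Without weed-free libraries 1, 2 and 3 in turn, 134, 92 and 413 genes were higher and 74, 34 and 92 lower. With the block, leaving out artificial low R:FR library 3 gave 1288 higher and 988 lower genes, and leaving out any other single library gave fewer calls than all libraries in both directions.

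**Figure D1:**
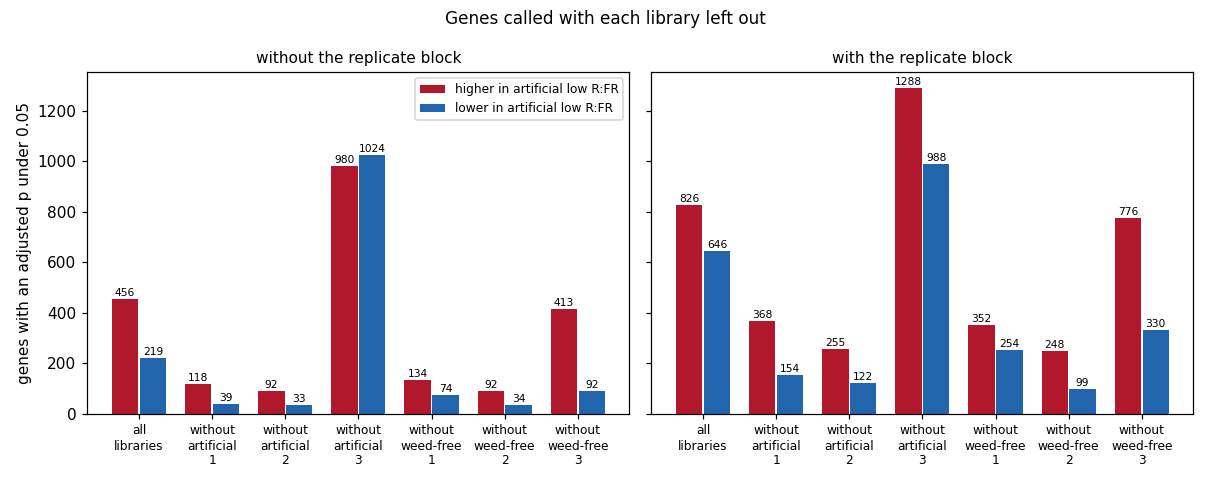
Bars give the number of genes with an adjusted p under 0.05 that were higher (red) or lower (blue) under the LEDs than in weed-free plants, for all libraries and with each of the 6 libraries left out, without (left) and with (right) the replicate block. Leaving out artificial low R:FR library 3 raised the calls without the block to 980 higher and 1024 lower, whereas leaving out library 1 or 2 of that group lowered them.

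Marker genes of shade rose many-fold under the LEDs, while most of the pathway did not pass the test. Of 28 tested members of a list of 29 shade avoidance and phytochrome genes, 6 were higher and 2 lower without the block, with a median log2 difference of 0.27. With the block 11 were higher and 3 lower, and with replicate 3 left out 11 and 5. *HFR1* (AT1G02340), a helix-loop-helix protein that binds PIFs and restrains elongation, reached 58.7, 59.6 and 54.1 TPM under the LEDs, against 2.07, 2.70 and 1.38 TPM in weed-free plants. Its log2 difference of 4.28 (standard error 0.15, adjusted p = 9.89e-08) carried the smallest adjusted p of all genes tested. *PIL1* (AT2G46970), a PIF relative long used as an early marker of shade, reached 26.3, 25.2 and 16.1 TPM, against 1.18, 1.68 and 0.925 TPM in weed-free, a log2 difference of 3.36 (standard error 0.19, adjusted p = 5.42e-06). *ATHB2* (AT4G16780), a homeodomain transcription factor that promotes elongation, reached 103, 99.7 and 75.4 TPM, against 28.1, 30.1 and 25.6 TPM in weed-free plants (1.69, standard error 0.14, adjusted p = 0.000181). None of these groups overlapped, which alone held for 13.9% of all genes on the higher side. All 3 genes passed in every setting of the TPM fit that was run. The deposited count table, whose reads were counted separately and could be recovered as whole reads, holds far fewer reads than the study mapped. It was deep enough in edgeR for 14 of the 28, of which *BBX25* alone passed, higher, and *ATHB2* had a log2 difference of 1.27 (adjusted p = 0.0653). *HFR1* and *PIL1* were not among the 14. An exact permutation test of 3 libraries against 3 cannot go below p = 0.1, so single genes are judged by limma.

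The photoreceptor gene itself rose as well. *PHYB* reached 24.6, 27.0 and 26.0 TPM under the LEDs, against 11.3, 11.2 and 13.8 TPM in weed-free plants (1.04, standard error 0.14, adjusted p = 0.00379). *HY5* and its partner *HYH*, bZIP factors that promote development in light, were both higher. *HY5* reached 8.63, 10.2 and 5.74 TPM, against 3.44, 1.95 and 3.33 TPM in weed-free plants (1.23, adjusted p = 0.0149), and *HYH* at 22.3, 23.8 and 8.10 TPM, against 3.22, 2.69 and 3.55 TPM (2.07, adjusted p = 0.0138). In *HYH* the third artificial low R:FR library was far below the other two of its group but still above every weed-free library. Going the other way, *HAT3*, a homeodomain relative of *ATHB2*, fell to 4.47, 4.27 and 7.30 TPM, against 16.0, 15.3 and 15.5 TPM in weed-free plants (-1.42, standard error 0.17, adjusted p = 0.0028). *PIF4*, which drives elongation, reached 56.8, 58.8 and 64.1 TPM, against 90.4, 93.2 and 98.0 TPM in weed-free plants (-0.64, adjusted p = 0.0248).

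Several regulators of light signalling passed only with the block. *BBX25* and *BBX28*, B-box proteins that act with *HY5*, had log2 differences of 1.97 and 1.31 (adjusted p = 0.104 and 0.0688 without the block, 2.31e-05 and 0.00266 with it). *PHYA*, the photoreceptor for continuous far-red, reached 8.26, 8.44 and 10.7 TPM, against 14.0, 12.9 and 14.3 TPM in weed-free plants (-0.55, adjusted p = 0.0549 without and 0.0474 with the block). Other members showed little difference. *PIF5* and *PIF7* had log2 differences of -0.01 and -0.05, and *HAT2*, another relative of *ATHB2*, one of 0.25 (adjusted p = 0.462).

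**Figure D2:**
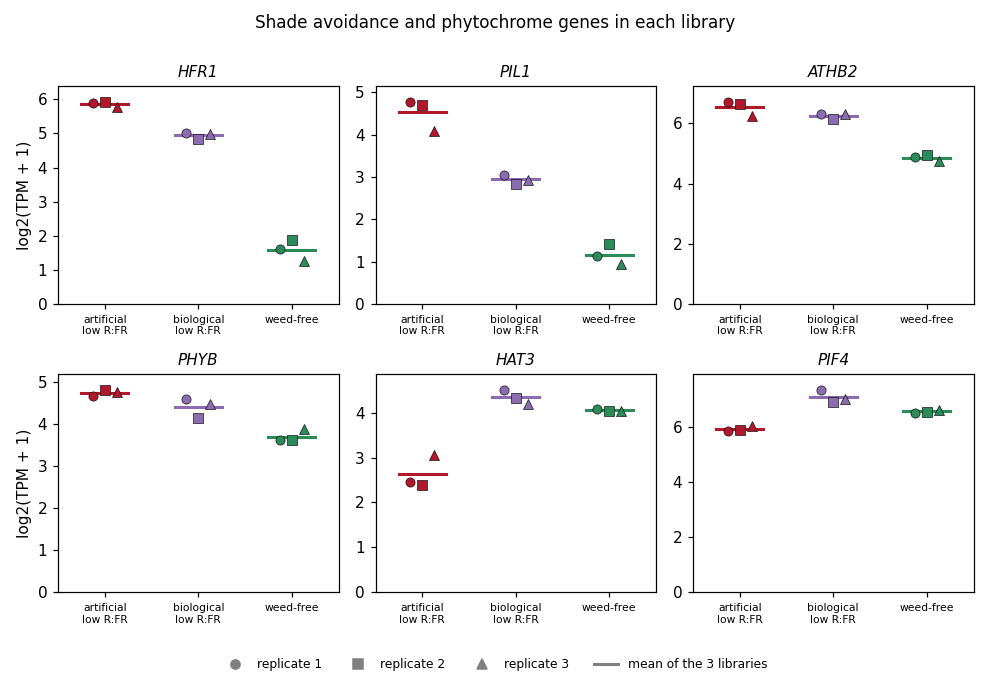
Points give log2(TPM + 1) of 6 shade avoidance and phytochrome genes in each library, with replicates 1 to 3 as circles, squares and triangles and the mean of the 3 libraries as a line, for artificial low R:FR, biological low R:FR and weed-free. *HFR1*, *PIL1*, *ATHB2* and *PHYB* lay above weed-free in all 3 artificial low R:FR libraries, and *HAT3* and *PIF4* below it.

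Growth genes downstream of shade moved in small numbers. Of 24 tested auxin genes 3 were higher and 1 lower without the block and 5 were higher and 1 lower with it, and 8 were higher and 1 lower with replicate 3 left out, with a median of 0.23. The 3 are *SAUR16*, *SAUR19* and *SAUR14*, of a family of small proteins whose *SAUR19* branch promotes cell expansion. *SAUR16* reached 174, 216 and 217 TPM under the LEDs, against 111, 114 and 86.7 TPM in weed-free plants (0.96, adjusted p = 0.00834), and *SAUR19* at 19.0, 21.2 and 22.7 TPM, against 12.4, 9.02 and 9.93 TPM (0.95, adjusted p = 0.00857). *SAUR19* has a copy 93.0% identical in sequence, *SAUR24*, with which it may share reads. *TAA1*, the enzyme of the first step from tryptophan to auxin, was lower, at 1.58, 1.3 and 1.52 TPM, against 3.68, 3.87 and 2.78 TPM in weed-free plants (-0.84, adjusted p = 0.0098). The auxin synthesis genes *YUC8* and *YUC9* had log2 differences of 0.06 and 0.09 (adjusted p = 0.886 and 0.882). *IAA19*, an auxin-induced repressor, passed with the block only, at 49.1, 60.9 and 57.5 TPM, against 24.2, 24.1 and 35.7 TPM in weed-free plants (0.99, adjusted p = 0.0708 without and 0.0113 with it).

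Of 15 tested cell wall genes 2 rose and none fell, with or without the block and with replicate 3 left out. *XTH24*, an enzyme that cuts and rejoins xyloglucan, reached 8.82, 9.20 and 7.86 TPM under the LEDs, against 3.04, 2.77 and 3.25 TPM in weed-free plants (1.26, standard error 0.13, adjusted p = 0.00108). *EXPA10*, an expansin that loosens walls, reached 7.90, 6.52 and 8.52 TPM, against 3.34, 3.86 and 4.08 TPM (0.86, adjusted p = 0.0164). At p under 0.05 before adjustment, 3 of the 15 were higher and 1 lower. Among 19 tested genes of gibberellin, brassinosteroid and ethylene, *DWF4*, a hydroxylase of brassinosteroid synthesis, was the single call without the block, whereas 2 genes were lower with it, and 1 was higher and 3 lower with replicate 3 left out. *DWF4* reached 0.912, 0.966 and 1.51 TPM, against 2.59, 2.46 and 3.17 TPM in weed-free plants (-0.82, adjusted p = 0.0295).

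Some jasmonate response genes were higher under the LEDs. Of 17 tested members of 26, 5 rose without the block, 8 with it and 9 with replicate 3 left out, none passed as lower, also at p under 0.05 before adjustment, and the median log2 difference was 0.39. In 10 of the 17 all 3 same-numbered pairs were higher, against 20.6% of all genes. *NINJA*, an adaptor of the JAZ repressors, had -0.22 (adjusted p = 0.37). Every artificial low R:FR library of *NINJA* lay below every weed-free one, as in 14.2% of all genes. The plant defensin *PDF1.3* (AT2G26010), a small antifungal protein, reached 47.8, 49.2 and 23.9 TPM under the LEDs, against 0.315, 0.947 and 0.694 TPM in weed-free plants (4.59, standard error 0.38, adjusted p = 0.00168). It was named for the size of its rise and is not a member of the list. *PDF1.2* (AT5G44420), the defensin commonly used to report joint jasmonate and ethylene signalling, reached 46.1, 53.8 and 66.1 TPM, against 1.77, 2.67 and 2.17 TPM in weed-free plants (4.13, standard error 0.54, adjusted p = 0.012). *PDF1.2B* reached 1.93, 1.24 and 2.21 TPM under the LEDs and was listed at 0 in all 3 weed-free libraries. With *HFR1*, *PDF1.3* and *PDF1.2* had the 3 largest rises among genes that passed without the block and averaged at least 5 TPM.

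*JAZ6* and *JAZ9*, repressors that jasmonate both destroys and induces, rose with them. *JAZ6* reached 56.4, 46.9 and 29.7 TPM under the LEDs, against 15.3, 16.4 and 15.5 TPM in weed-free plants (1.39, adjusted p = 0.00499), and *JAZ9* at 65.8, 40.4 and 32.2 TPM, against 18.3, 11.9 and 14.8 TPM (1.51, adjusted p = 0.00834). *MYC4*, a transcription factor that the JAZ proteins bind, and *CLH1*, a chlorophyllase induced by jasmonate, had log2 differences of 0.76 and 1.2 (adjusted p = 0.0342 and 0.0361). *JAZ1* and *JAZ2* had 0.17 and -0.05 (adjusted p = 0.609 and 0.904), and the receptor gene *COI1* -0.03. With the block *TAT3*, *ORA59* and *PDF1.2B* passed as well (adjusted p = 0.0115, 0.0398 and 0.0376).

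Enzymes that make and remove jasmonate gave few calls. Of 18 tested biosynthesis genes 1 rose without the block and 3 with it, and 4 rose and 1 fell with replicate 3 left out, with a median of 0.11. *LOX2*, the plastid lipoxygenase of the first committed step, reached 108, 93.9 and 98.5 TPM under the LEDs, against 55.5, 45.6 and 76.4 TPM in weed-free plants (0.78, adjusted p = 0.0342). Of 12 inactivation genes only 5 were abundant enough to test, of which 1 passed with and without the block and 3 were higher with replicate 3 left out. The 1 is *ST2B*, a sulfotransferase that is listed for its likeness to *ST2A* and is not known to act on jasmonates. *ST2B* reached 20.4, 19.0 and 14.3 TPM, against 5.65, 6.98 and 4.22 TPM in weed-free plants (1.52, standard error 0.18, adjusted p = 0.00257). *ST2A*, which sulfates hydroxylated jasmonate, reached 10.7, 8.60 and 12.3 TPM, against 6.94, 6.41 and 3.09 TPM in weed-free plants. Its log2 difference was 0.88, with an adjusted p of 0.0766 without and 0.0684 with the block. The groups did not overlap, which alone held for 13.9% of all genes on the higher side. With replicate 3 left out *ST2A* had an adjusted p of 0.103 (log2 difference 0.47).

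**Figure D3:**
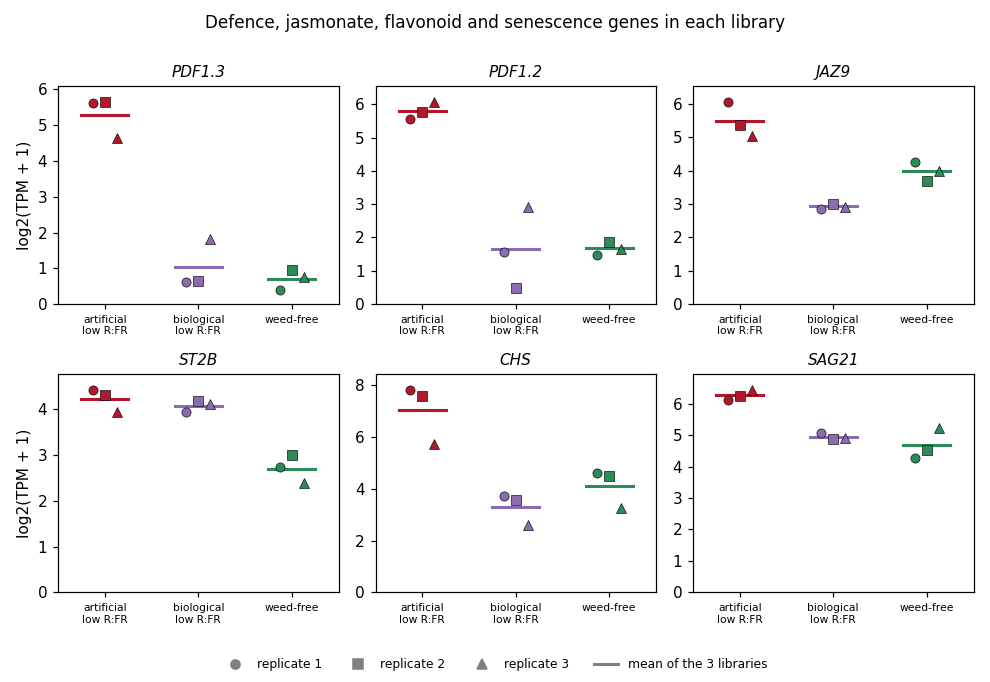
Points give log2(TPM + 1) of 6 defence, jasmonate, flavonoid and senescence genes in each library, drawn as in the plot of shade genes. *PDF1.3*, *PDF1.2*, *JAZ9*, *CHS* and *SAG21* were higher in artificial low R:FR than in every library of the other treatments, while *ST2B* was above weed-free under both low R:FR treatments.

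Genes of salicylic acid, the hormone of immunity to biotrophic pathogens, moved in both directions. Of 18 tested, 2 rose and 2 fell without the block, 6 rose and 3 fell with it, 8 rose and 3 fell with replicate 3 left out, and the median was -0.001. *PBS3* and *ICS1*, enzymes of salicylate synthesis, had log2 differences of 1.43 and 0.81 (adjusted p = 0.0124 and 0.0434). *ICS1* passed in 7 of 14 alternative settings, with an adjusted p of up to 0.159. *PBS3* reached 5.48, 5.61 and 6.51 TPM under the LEDs, against 1.17, 0.968 and 2.88 TPM in weed-free plants. The immune regulators *WRKY70* and *NPR1* were lower, with log2 differences of -0.93 and -0.50 (adjusted p = 0.0182 and 0.0439). *PR1*, a secreted protein that reports salicylate signalling, reached 23.7, 37.1 and 119 TPM, against 0, 0.144 and 8.22 TPM in weed-free. In both groups its library 3 was the highest, and the log2 difference of 4.46 (standard error 1.00) had adjusted p = 0.0649 without and 0.00372 with the block. *PR2* and *PR5*, of the same kind, and *ALD1*, an enzyme of the immune signal pipecolate, likewise passed only with the block (adjusted p = 0.0294, 0.00264 and 0.00566).

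Senescence genes rose in 2 of 6 tested members without the block, in 4 with it and in 4 with replicate 3 left out, with a median of 0.98. *SAG21*, a small protein of aging and stressed leaves, reached 68.7, 74.5 and 85.3 TPM under the LEDs, against 18.3, 22.2 and 36.2 TPM in weed-free plants (1.59, standard error 0.20, adjusted p = 0.00379). *SAG13* reached 4.87, 9.17 and 21.9 TPM, against 0.827, 0.786 and 2.86 TPM (2.25, standard error 0.49, adjusted p = 0.0492). *SAG13* was again highest in the third library of both groups. *ORE1*, a transcription factor of leaf senescence, had a log2 difference of -0.22 (adjusted p = 0.83).

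Singlet oxygen, an excited form of oxygen made by chlorophyll, is the signal the study asked about. Of 9 tested marker and signalling genes 1 rose and 1 fell without the block and 2 rose and 2 fell with it or with replicate 3 left out, with a median of -0.085. *ZAT12*, a zinc finger protein of oxidative stress, reached 2.52, 3.97 and 4.90 TPM under the LEDs, against 0.482, 1.14 and 2.28 TPM in weed-free plants (1.1, adjusted p = 0.0477). It passed in 6 of 14 alternative settings, with an adjusted p of up to 0.193. *SIB1*, a plastid and nuclear regulator of defence, reached 24.2, 24.1 and 50.3 TPM, against 59.9, 76.9 and 85.6 TPM (-1.22, adjusted p = 0.0314). *BAP1*, a common marker of singlet oxygen, reached 1.25, 1.93 and 2.96 TPM, against 0.275, 1.51 and 2.87 TPM in weed-free with overlapping groups (0.36, adjusted p = 0.63). The study chose 6 induced genes of this kind on the same libraries, so their direction is no independent evidence. Of the 5 that could be tested in TPM, none passed without or with the block in limma, 1 was higher at p under 0.05 before adjustment, and 1 passed with replicate 3 left out, while edgeR on recovered reads called none of the 5. *PUB25*, a ubiquitin ligase, had the largest difference relative to its error, at 8.67, 10.3 and 8.32 TPM, against 5.78, 5.80 and 7.04 TPM (0.48, adjusted p = 0.0692 without and 0.0633 with the block). *ILL6*, also a member of the jasmonate inactivation list, was below the filter and could not be tested. It was listed at 0.933, 0.940 and 0.905 TPM under the LEDs, against 0.833, 0.548 and 0.997 TPM in weed-free plants. Beside the grass *ILL6* had 2.49, 1.83 and 3.01 TPM.

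Antioxidant genes gave 2 rises among 18 tested without the block, and 4 rises and 2 falls with it or with replicate 3 left out. *VTC2*, the enzyme that controls ascorbate synthesis, reached 303, 345 and 177 TPM under the LEDs, against 118, 114 and 101 TPM in weed-free plants (1.25, adjusted p = 0.021). *GR1*, a glutathione reductase, reached 46.9, 43.7 and 26.4 TPM, against 18.5, 17.8 and 14.6 TPM (1.12, adjusted p = 0.0234). With the block *CAT2* was higher and *CAT1* and *CAT3* were lower. *CAT2*, the main leaf form, reached 478, 465 and 206 TPM, against 187, 145 and 78.0 TPM in weed-free plants (1.47, adjusted p = 0.146 without and 0.000304 with it). *CAT3* reached 344, 325 and 907 TPM, against 1169, 1156 and 1423 TPM (-1.41, adjusted p = 0.0603 without and 0.0177 with the block).

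Flavonoid genes make ultraviolet screens and pigments from phenylalanine. Of 9 tested members of 21, 3 rose without the block, 7 with it and 8 with replicate 3 left out, and none fell, also at p under 0.05 before adjustment, with a median of 0.78. *FLS1*, flavonol synthase, reached 11.6, 8.65 and 7.82 TPM under the LEDs, against 4.52, 4.15 and 3.06 TPM in weed-free plants (1.07, adjusted p = 0.00906). *CHS*, chalcone synthase and the entry to the pathway, reached 223, 191 and 51.4 TPM, against 23.3, 21.8 and 8.43 TPM (2.92, standard error 0.67, adjusted p = 0.065 without and 0.000102 with the block). Its library 3 was the lowest of both groups, and the difference within same-numbered pairs was 3.21, 3.08 and 2.47. *PAL1* and *PAL2*, phenylalanine ammonia lyases, rose by 1.19 and 0.78 (adjusted p = 0.0451 and 0.0316). The exception was *PAP1*, a regulator of anthocyanin, with -0.51 (adjusted p = 0.323).

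Photosynthesis genes gave few calls without the block. In the antenna, which collects light for the photosystems, 1 of 21 genes rose without or with the block, with a median of -0.05. At p under 0.05 before adjustment 2 were higher and 4 lower, and with replicate 3 left out 2 were higher and 5 lower. Of all 17179 genes tested 1817 were higher and 1715 lower before adjustment, and 10.9% and 6.96% with replicate 3 left out. *LHCB4.3*, a variant of the minor antenna protein CP29, reached 343, 300.0 and 209 TPM under the LEDs, against 114, 104 and 99.5 TPM in weed-free plants (1.39, standard error 0.19, adjusted p = 0.00379). The other CP29 genes, *LHCB4.1* and *LHCB4.2*, had log2 differences of -0.20 and -0.20 (adjusted p = 0.439 and 0.592). *OHP1*, a one-helix relative of the antenna that helps build photosystem II, reached 590.0, 637 and 401 TPM, against 345, 335 and 261 TPM (0.77, adjusted p = 0.0408). *ELIP1*, which is made under high light, reached 28.8, 21.9 and 3.88 TPM, against 1.2, 1.36 and 0.332 TPM (2.97, adjusted p = 0.0549 without and 0.0187 with the block).

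All 10 Calvin cycle genes were higher in artificial low R:FR in all 3 same-numbered pairs, against 20.6% of all genes, yet none passed without the block in limma or in edgeR on recovered reads, and 2 passed with the block. At p under 0.05 before adjustment, 8 of the 10 were higher, 8 passed with replicate 3 left out, and their median was 0.50. *RCA*, Rubisco activase, reached 6623, 6256 and 4817 TPM under the LEDs, against 3927, 3908 and 2820.5 TPM in weed-free plants (0.73, adjusted p = 0.0506 without and 0.0165 with the block). Of 24 genes of chlorophyll synthesis none passed without the block in limma (3 higher and 2 lower at p under 0.05 before adjustment), and with it *CAO*, *GUN4* and *HEMA1* were higher. With replicate 3 left out 3 were higher and 4 lower, against 10.9% and 6.96% of all genes. *CAO*, which makes chlorophyll b, reached 112, 119 and 85.6 TPM, against 69.4, 70.0 and 45.0 TPM (0.78, adjusted p = 0.0028 with the block). The median of the list was -0.10, and its largest difference was a lower value that did not pass. This was *PORB*, at 316, 284 and 1128 TPM, against 1852, 1665 and 1258 TPM (-1.75, adjusted p = 0.0997 without and 0.0815 with the block). Exons of *GUN4* and *GCN2* overlap on opposite strands, so their reads may not be told apart. Of 7 tested genes of chlorophyll breakdown 1 rose without the block, 1 rose and 2 fell with it or with replicate 3 left out, and the median was -0.19. *SGR1*, which removes magnesium from chlorophyll, rose by 0.60 (adjusted p = 0.0408). *NYC1* and *HCAR*, reductases that turn chlorophyll b toward chlorophyll a, had -0.74 and -0.74 (adjusted p = 0.179 and 0.0947 without, 0.0068 and 0.0118 with the block). Of 19 genes of the carotenoid and plastid isoprenoid pathways 1 rose without the block, 4 rose and 1 fell with it, and 6 rose and 1 fell with replicate 3 left out. In the carotenoid pathway *BCH1*, a hydroxylase of beta-carotene, rose by 1.02 (adjusted p = 0.043).

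Nitrate and sulfur assimilation each held genes with clear rises. Of 15 tested nitrate genes 2 rose without the block, and 7 rose and 2 fell with it, and 8 rose and 3 fell with replicate 3 left out, with a median of 0.40. *NIA2*, the main nitrate reductase, reached 196, 191 and 155 TPM under the LEDs, against 65.7, 65.8 and 54.4 TPM in weed-free plants (1.53, standard error 0.21, adjusted p = 0.00499). *NIR1*, the enzyme of the next step, had a log2 difference of 0.29 (adjusted p = 0.215). Of 11 sulfur genes 2 rose with or without the block and 7 with replicate 3 left out, with a median of 0.40 (0.74, 0.59 and -0.23 in pairs 1, 2 and 3). *APR2*, the main reductase of activated sulfate, reached 165, 163 and 90.5 TPM, against 51.7, 53.5 and 42.0 TPM (1.44, adjusted p = 0.00832). *LSU1*, a small protein induced by low sulfur, reached 11.2, 11.1 and 11.2 TPM, against 1.57, 2.18 and 6.69 TPM (1.62, adjusted p = 0.0326). No tested gene of phosphate starvation (7) or iron status (11) passed without or with the block in limma, and 1 phosphate gene was higher and 1 iron gene lower at p under 0.05 before adjustment. With replicate 3 left out 1 gene of each list was higher.

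The circadian clock lists had large differences and a wide spread between replicates. The hour of harvest is not given. An effect of the LEDs and a difference in hour between groups may thus not be told apart, here or in other genes that follow the clock. The clock is a loop in which proteins made at dawn, such as CCA1 and LHY, shut off evening genes, and evening proteins shut off the dawn genes. Of 12 tested morning genes none passed without the block in limma (9 were higher at p under 0.05 before adjustment), 8 were higher with it and 9 with replicate 3 left out. Their median log2 difference was 1.66, and 1.5, 1.84 and 0.90 in pairs 1, 2 and 3. Of 11 day and evening genes none passed without the block (8 were lower at p under 0.05 before adjustment), 6 were lower with it and 9 with replicate 3 left out. Their median was -1.75, and -2.26, -2.16 and -1.05 in the 3 pairs. The third library was the lowest of its group in 9, 12 and 9 of the 12 morning genes in artificial low R:FR, biological low R:FR and weed-free, and the highest in 9, 8 and 10 of the 11 day and evening genes. The share of all genes with such an order was not counted. In the recovered reads edgeR could test 2 of the morning genes, of which none passed, and 5 of the day and evening genes, of which *ELF4* was lower (log2 difference -4.01, adjusted p = 0.0308) and *LUX* higher (1.13, adjusted p = 0.014), whereas in TPM *LUX* had -1.46.

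*LNK3*, a coactivator of morning transcription, reached 64.1, 73.9 and 21.5 TPM under the LEDs, against 13.9, 13.0 and 7.42 TPM in weed-free plants (1.99, adjusted p = 0.0833 without and 0.000412 with the block). *PRR9*, the first of the pseudo-response regulators to peak after dawn, reached 25.7, 28.9 and 15.9 TPM, against 10.1, 8.89 and 2.52 TPM (1.71, adjusted p = 0.248 and 0.00925). *CCA1* had a log2 difference of 2.61 (standard error 0.70 without and 0.22 with the block). Of the 12 morning genes 10 lay above weed-free in all 3 same-numbered pairs, against 20.6% of all genes. The exceptions were *RVE6* and *PRR7*, with log2 differences of -0.25 and -0.31 (adjusted p = 0.342 and 0.481).

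Of the 11 day and evening genes 9 were lower in all 3 same-numbered pairs, against 30.6% of all genes. In 9 of the 11, artificial low R:FR libraries 1 and 2 were the lowest of the 6. How many of all genes had this order was not counted. *PRR5*, a repressor of dawn genes, reached 0.583, 0.452 and 43.9 TPM under the LEDs, against 46.5, 44.7 and 54.8 TPM in weed-free plants (-3.40, standard error 1.31, adjusted p = 0.214 without and 0.218 with the block). *GI*, a large protein that ties the clock to flowering, reached 3.58, 3.66 and 16.7 TPM, against 20.9, 19.8 and 30.8 TPM (-1.75, adjusted p = 0.103 and 0.0263). *TOC1*, which closes the loop on the dawn genes, had a log2 difference of -2.27 (adjusted p = 0.121 and 0.000886). *ZTL*, an F-box photoreceptor whose transcript is not rhythmic, reached 20.2, 21.6 and 21.0 TPM, against 19.6, 18.6 and 22.9 TPM (0.04, adjusted p = 0.884).

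Of 9 tested outputs of the clock none passed without the block in limma (4 higher and 5 lower at p under 0.05 before adjustment), 3 rose and 3 fell with it, and 4 rose and 4 fell with replicate 3 left out. *COR27*, a repressor under evening control, reached 0.15, 0 and 3.53 TPM under the LEDs, against 12.4, 9.86 and 99.8 TPM in weed-free plants. Its log2 difference of -3.82 had a standard error of 1.16 without the block and 0.19 with it (adjusted p = 0.129 and 2.31e-05). *GRP7*, an RNA-binding protein that peaks in the evening, reached 97.6, 90.9 and 2473 TPM, against 3491, 3495 and 6508 TPM (-3.93, adjusted p = 0.15 and 0.0995). *BBX8* (AT5G48250), a CONSTANS-like B-box protein among the largest falls with the block, reached 2.00, 1.98 and 19.8 TPM, against 28.9, 29.5 and 86.9 TPM (-2.92, adjusted p = 0.126 and 0.00765). It shares 56 bp of exon with an opposite-strand gene. *CDF3*, a morning-expressed repressor of flowering, rose with the block only (0.61, adjusted p = 0.00833). Its relative *CDF1* passed with opposite signs, with a log2 difference of 1.00 in TPM (adjusted p = 0.00515 with the block) and -1.21 in edgeR on recovered reads (adjusted p = 0.00656).

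The promoters of these genes can be read for the letters that clock proteins are known to bind. The evening element (AAAATATCT) is bound by CCA1 and its relatives, and the G-box (CACGTG) by PIFs, HY5 and other factors. Both strands of the 250 bases upstream of each annotated gene start were searched. The sequences below are of the TAIR10.1 reference, 5′ to 3′ on the strand of the gene, with evening elements on either strand in capitals for 2 genes lower in artificial low R:FR with the block, and G-boxes in capitals for 2 morning genes higher with it. They are shown because these 4 genes passed with the block and carry the letters searched.
BBX8, chr5:19563833-19564082, minus strand: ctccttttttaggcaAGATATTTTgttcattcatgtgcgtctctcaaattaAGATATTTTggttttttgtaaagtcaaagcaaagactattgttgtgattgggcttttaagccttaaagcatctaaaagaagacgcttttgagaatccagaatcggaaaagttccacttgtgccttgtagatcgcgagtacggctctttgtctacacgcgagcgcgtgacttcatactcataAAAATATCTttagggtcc
TOC1, chr5:24674713-24674962, plus strand: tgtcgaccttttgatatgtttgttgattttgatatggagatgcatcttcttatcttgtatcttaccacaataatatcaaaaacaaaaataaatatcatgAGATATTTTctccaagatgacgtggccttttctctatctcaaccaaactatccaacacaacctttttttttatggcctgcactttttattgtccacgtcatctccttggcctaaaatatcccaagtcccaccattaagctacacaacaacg
CCA1, chr2:19245341-19245590, plus strand: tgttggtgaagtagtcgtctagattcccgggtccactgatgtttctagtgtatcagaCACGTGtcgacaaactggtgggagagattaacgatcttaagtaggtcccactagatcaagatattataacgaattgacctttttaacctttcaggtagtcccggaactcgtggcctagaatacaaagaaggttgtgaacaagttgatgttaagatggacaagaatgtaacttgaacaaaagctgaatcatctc
PRR9, chr2:19232357-19232606, plus strand: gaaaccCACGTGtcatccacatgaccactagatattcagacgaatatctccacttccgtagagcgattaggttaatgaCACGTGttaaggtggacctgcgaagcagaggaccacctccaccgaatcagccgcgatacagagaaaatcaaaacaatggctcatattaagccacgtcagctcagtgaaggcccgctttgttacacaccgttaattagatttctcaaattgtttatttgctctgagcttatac

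An evening element was found in 11.9% of the promoters of genes lower with the block (77 of 645) and 6.4% of those lower without it (14 of 219), against 2.6% of all tested genes (435 of 16999). Among genes higher in artificial low R:FR the share was 2.0% with and 2.7% without the block. The G-box stood in 10.5% of promoters of genes higher with the block and 8.1% of those lower with it, against 7.2% of all. Another sequence that PIFs bind (CACATG) stood in 14.4% and 11.3%, against 10.7% of all, and a second CCA1-binding site (AAAAATCT) in 7.0% and 7.6%, against 6.7%. Without the block the G-box stood in 8.1% of promoters of higher genes and 7.3% of those of lower genes. For CACATG these shares were 13.7% and 11.9%, and for AAAAATCT 7.0% and 6.4%. None of the 4 motifs contains another. *HFR1*, *PIL1* and *ATHB2* held none of the 4 in this window. A match is a description of the letters and shows no binding.

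**Figure D4:**
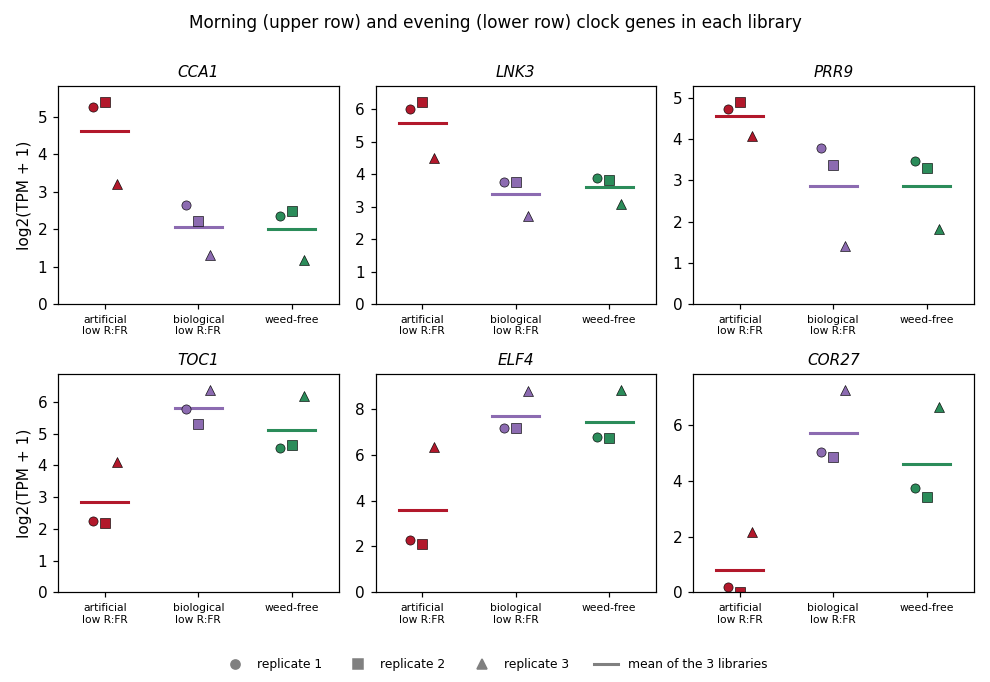
Points give log2(TPM + 1) of 3 morning genes (upper row) and 3 evening genes (lower row) in each library, drawn as in the plot of shade genes. The triangles of replicate 3 lie lowest in the morning genes and highest in the evening genes of every treatment, and within each replicate number artificial low R:FR lies above weed-free in the upper row and below it in the lower row.

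Starch, sugar starvation and cold genes had medians below 0, and more of them passed with replicate 3 left out. Whether these lists also followed the hour of harvest was not tested. Of 16 starch genes none passed without the block in limma (2 higher and 9 lower at p under 0.05 before adjustment), 2 rose and 6 fell with it, and 3 rose and 11 fell with replicate 3 left out, with a median of -0.60. *GBSS1*, the starch synthase that makes amylose, reached 26.4, 22.8 and 5.02 TPM under the LEDs, against 2.66, 2.55 and 1.54 TPM in weed-free plants (2.3, adjusted p = 0.0776 without and 0.0037 with the block). *AMY3* and *PWD*, enzymes of starch breakdown, had -1.08 and -1.91 (adjusted p = 0.0142 and 0.0313 with the block).

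Of 8 tested sugar starvation genes 2 fell with or without the block, 6 fell with replicate 3 left out, and the median was -1.07. *DRM1* (AT1G28330), a marker of dormant and starved tissue, reached 1.39, 1.60 and 6.14 TPM under the LEDs, against 23.1, 29.3 and 59.8 TPM in weed-free plants. Its log2 difference of -3.32 had a standard error of 0.50 without the block (adjusted p = 0.0196) and 0.18 with it (adjusted p = 3.97e-05). *DIN10*, a raffinose synthase-like gene induced in the dark, reached 1.85, 3.25 and 4.71 TPM, against 8.12, 9.39 and 12.1 TPM (-1.39, adjusted p = 0.00963). *DRM2*, a relative of *DRM1*, reached 3.69, 2.92 and 145 TPM, against 233, 259 and 1079.9 TPM (-4.86, adjusted p = 0.131 and 0.0634).

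The cold regulon comprises the *CBF* activators and their *COR* targets, several of which also follow the clock. Of its 9 tested genes 1 fell without the block, 3 with it and all 9 with replicate 3 left out, with a median of -2.03. *KIN1*, a small protein of cold and drought stress, reached 2.28, 1.96 and 11.4 TPM under the LEDs, against 37.4, 24.7 and 38.1 TPM in weed-free plants (-2.78, standard error 0.53, adjusted p = 0.0382). It is 92.1% identical in sequence to *COR6.6*, with which it may share reads. *COR47*, a dehydrin, reached 82.2, 77.9 and 264 TPM, against 475, 404 and 609.6 TPM (-2.03, adjusted p = 0.0519 and 0.0172). *CBF1* reached 0.310, 0.276 and 2.99 TPM, against 6.22, 7.46 and 4.17 TPM (-1.86, adjusted p = 0.0694 and 0.105).

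**Figure D5:**
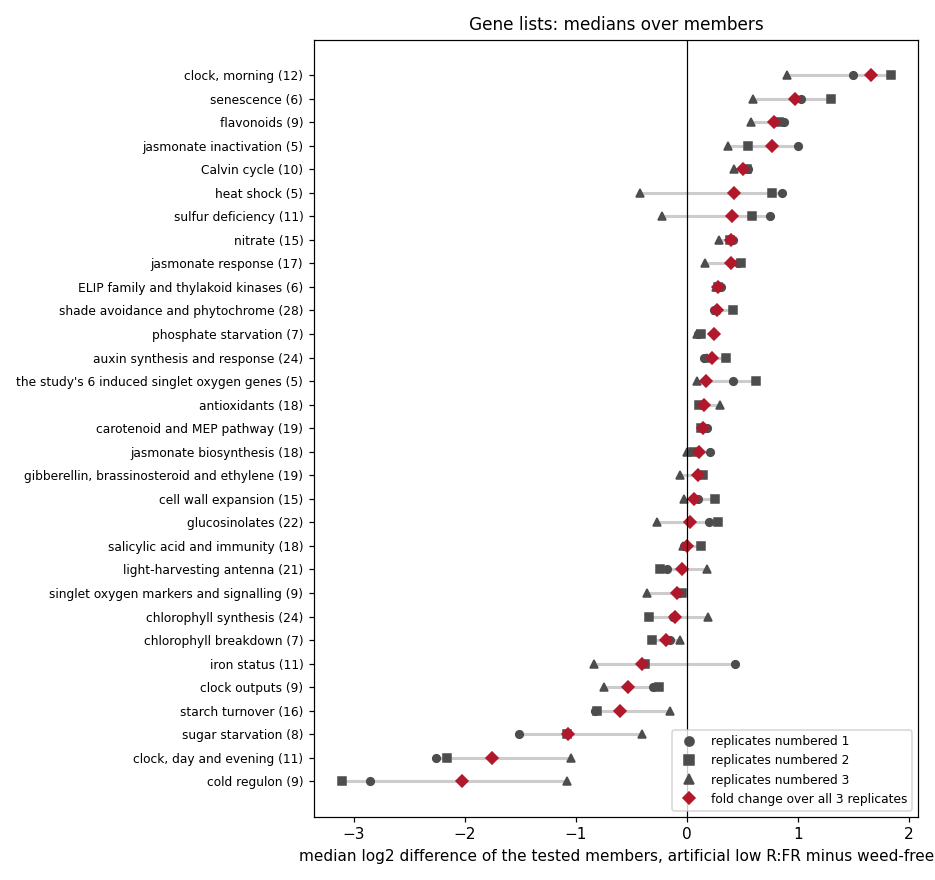
Each row is a gene list with the number of tested members in parentheses, and the horizontal axis gives the median log2 difference of those members, artificial low R:FR minus weed-free. Diamonds mark the fold change over all replicates and grey symbols the 3 same-numbered pairs. The day and evening clock list (-1.75) and the cold regulon (-2.03) lie lowest and the morning clock list (1.66) highest, and in all 3 the pair numbered 3 lies nearest to 0.

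Further genes were named for the size of their change. Among the 12 largest rises without the block *TRY*, an inhibitor of leaf hair formation, reached 24.4, 25.1 and 11.7 TPM under the LEDs, against 4.27, 4.32 and 2.03 TPM in weed-free plants (2.21, adjusted p = 0.00499). *ZAT7*, a zinc finger protein of stress responses, reached 8.90, 11.6 and 10.2 TPM, against 0.533, 0.167 and 2.63 TPM (2.58, adjusted p = 0.0174), and *AIG1*, a GTPase gene induced by bacteria, at 9.63, 11.4 and 14.2 TPM, against 0.396, 0.799 and 3.03 TPM (2.54, adjusted p = 0.00857). *BBX31*, a B-box protein of the ultraviolet response, rose by 2.32 (adjusted p = 0.00379) and *CP1*, a calcium-binding protein, by 2.3 (adjusted p = 0.00705). *TBL26*, of a family that acetylates wall polymers, and AT2G41250, annotated as a haloacid dehalogenase-like hydrolase, had 2.19 and 2.23 (adjusted p = 0.0026 and 0.021).

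Of the 12 largest falls without the block *HIS1-3* (AT2G18050), a linker histone induced by drought, had the smallest adjusted p. It reached 1.95, 2.06 and 2.29 TPM under the LEDs, against 13.2, 13.4 and 23.7 TPM in weed-free plants (-2.47, standard error 0.20, adjusted p = 0.000181). *OZF1*, a zinc finger protein of oxidative stress, reached 5.10, 4.43 and 7.63 TPM, against 22.8, 20.7 and 26.9 TPM (-1.88, adjusted p = 0.0024), and *RL6*, a small MYB-like gene, at 2.23, 1.69 and 3.89 TPM, against 8.74, 10.8 and 14.9 TPM (-1.81, adjusted p = 0.00379). *UGT85A5*, a glucosyltransferase, had a log2 difference of -1.75 (adjusted p = 0.0028) and *MYB73*, a transcription factor, one of -1.70 (adjusted p = 0.0379). AT3G15630, which shares 204 bp of exon with a gene on the other strand, had -1.99 (adjusted p = 0.0316). AT3G15450, annotated as an aluminum induced protein, passed without the block and not with it (log2 difference -1.84, adjusted p = 0.0482 and 0.0673).

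The LED treatment was also compared directly with biological low R:FR, which has the same R:FR from a different source. The study describes separate growth chambers for these sources, and live grass in a growing mix around the tube in place of the mineral filler. These differences may not be told apart from that of the light source. Artificial low R:FR was higher in 2424 genes (14.1%) and lower in 4034 (23.5%). The median of all genes was -0.14 in this contrast, and once libraries were scaled to a common median 3800 genes were higher and 3432 lower. Once scaled, the median of all genes was -0.002. *HFR1* and *PIL1* were higher under the LEDs than beside the grass. *HFR1* reached 58.7, 59.6 and 54.1 TPM under the LEDs, against 31.6, 27.8 and 30.5 TPM beside the grass (difference 0.92, standard error 0.15, adjusted p = 0.00147), and *PIL1* at 26.3, 25.2 and 16.1 TPM against 7.27, 6.17 and 6.67 TPM (1.58, adjusted p = 0.000359). For *ATHB2* the difference was 0.29 with a standard error of 0.14 (adjusted p = 0.12), for *XTH24* 0.08 with 0.13 (adjusted p = 0.658) and for *ST2B* 0.14 with 0.18 (adjusted p = 0.539).

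Other members of the same pathways were lower under the LEDs than beside the grass. *ST2A* reached 10.7, 8.60 and 12.3 TPM under the LEDs, against 26.1, 36.0 and 24.6 TPM beside the grass (-1.37, adjusted p = 0.00269). *IAA29*, an auxin-related target of PIFs, reached 36.6, 38.7 and 45.0 TPM against 97.7, 80.5 and 93.3 TPM (-1.16, adjusted p = 0.00286), and *YUC9* at 1.27, 0.916 and 1.39 TPM against 6.06, 2.98 and 6.03 TPM (-1.42, adjusted p = 0.00308). *PAR1*, a brake on shade avoidance, reached 3.67, 3.80 and 11.1 TPM against 45.8, 39.0 and 53.5 TPM (-2.85, adjusted p = 0.000603). *HAT3* differed by -1.70 (adjusted p = 0.000172). Of the 28 shade genes 6 were higher and 9 lower than in biological low R:FR, and of the 24 auxin genes 4 were higher and 11 lower. Of all genes tested 14.1% were higher and 23.5% lower in this contrast before scaling.

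Most flavonoid genes and all tested Calvin cycle genes were higher under the LEDs than beside the grass. The defensins *PDF1.3* and *PDF1.2* were higher than in biological low R:FR by 4.27 and 4.15 (adjusted p = 0.000295 and 0.0016), 7 of 17 jasmonate response genes were higher and none lower, and 7 of 9 flavonoid genes were higher and none lower. Of 18 genes of salicylic acid and immunity 5 were higher and 5 lower. Beside these counts, 14.1% of all genes were higher and 23.5% lower before scaling. All 10 Calvin cycle genes were higher than in biological low R:FR, and all 8 sugar starvation genes were lower. Both low R:FR treatments are set against the same weed-free libraries, so their changes are not independent. *LHCB4.3* reached 343, 300.0 and 209 TPM under the LEDs, 23.6, 34.3 and 30.3 TPM beside the grass and 114, 104 and 99.5 TPM in weed-free. *DRM1*, at the values given above for artificial low R:FR and weed-free, reached 166, 152 and 241 TPM beside the grass, a difference of -5.69 (standard error 0.50, adjusted p = 0.000502).

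Mesophyll genes were abundant in every library. The 7 mesophyll genes summed to 96485 to 104463 TPM under the LEDs and to 83800 to 101308 TPM in weed-free, and 1 of them passed, with the block only. At p under 0.05 before adjustment 4 mesophyll genes were higher and 1 lower, as with replicate 3 left out, and the part of this in the results was not tested. None of 8 guard cell and epidermis genes or 5 genes of dividing cells passed without or with the block in limma, and 1 of 7 vascular genes was lower with it. At p under 0.05 before adjustment without the block, 1 epidermal gene was higher and 2 lower, 2 vascular genes were lower and 1 gene of dividing cells was lower. The dividing cell genes summed to 15.2 to 18.9 TPM under the LEDs and to 21.2 to 24.0 TPM in weed-free. Flower genes were all under the detection filter, with sums of 0.560 to 0.755 TPM under the LEDs and 0.373 to 0.605 TPM in weed-free. Of 5 root genes *SCR* and *SHR*, which also act in leaves, were tested and did not pass. *SCR* reached 9.72, 10.5 and 9.68 TPM under the LEDs, against 7.29, 8.48 and 10.1 TPM in weed-free, and the root hair genes *COBL9* and *EXPA7* were listed at 0 in every library.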

How the data were processed

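RNA sequencing libraries of leaves of *Arabidopsis*, 3 per treatment, were used as deposited. The authors deposited per-library tables of TPM with the coverage of each gene (the program is not given in the sources used here) and a table of counts normalised by size factors. The coverage was deposited per gene and is used here for depth only. The submitters' processing notes name Bowtie2 2.4.3, HTSeq 0.13.5 and DESeq2 1.30.1. The deposited normalised count signal divides whole reads by a size factor per library. All values came back as whole reads within 1e-06, with 2320957 to 5025090 reads per artificial low R:FR library and 1683076 to 2893820 per weed-free library. Within a library these reads per kilobase ranked genes differently from TPM (Spearman 0.231 to 0.316 across genes, which are not independent), so that the files quantify genes differently. The recovered reads are also far fewer than the mapped reads that the study reports for the same libraries. Genes that edgeR or DESeq2 could not test or did not call may have lacked reads, which was not tested. Fold changes and p-values in the authors' comparison columns were not used. The strand setting of counting is not given in the sources used here, and 3603 tested genes share at least 50 bp of exon with a gene on the opposite strand.

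limma 3.58.1 in R 4.3.3 was fitted to log2(TPM + 1) of all 9 libraries, with trended and robust variance, without and with replicate number as a block. The 17179 genes with TPM of at least 1 in at least 3 of the 6 compared libraries were tested, two-sided, with Benjamini-Hochberg adjustment. On simulated data the fits were tested before use. Same-numbered libraries of artificial low R:FR and of weed-free deviated together from their group means (correlations 0.22, 0.17 and 0.31, all above 0.1), so the numbers were taken to pair these libraries. This rests on the data and on the study's description of independent experiments, as the labels only number the libraries. Artificial low R:FR library 1 had 0.15 with weed-free library 2, and library 2 had 0.08 with weed-free library 1. The pairing of libraries 1 and 2 is thus less clear than that of library 3. Artificial and biological low R:FR libraries were not paired in this way (-0.03, 0.08 and 0.17), and weed-free and biological ones had -0.001, 0.21 and 0.27. The block was still fitted to all 9 libraries, so calls that passed only with it rest on this pairing.

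Members and gene lists were chosen with earlier results of these data known. Genes were named by rule: the 12 largest rises and falls of each fit with a mean of at least 5 TPM and 1 sign in all 3 pairs, up to 4 members per list with the smallest adjusted p in each fit, called members against a list's majority, genes of the study, the 6 largest direct differences each way, and clock genes. Other members were named after their values were seen. Alternatives were another pseudocount, other filters, other libraries in the fit, scaling by median of ratios, a fit without trend, leaving out libraries, and edgeR 4.0.16 and DESeq2 1.42.0 on recovered reads. Tables and figures were made with Python 3.11.15, pandas 2.3.3, numpy 2.4.6, scipy 1.17.1 and matplotlib 3.10.9. Promoters and overlaps were read from the TAIR10.1 reference, in which 36855 of 37363 genes had the same start and end as in the TPM tables.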

Additional observations from a re-analysis of the deposited data

Results flagged for a closer look

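Only the 199 genes named by rule were searched here, some of which were named for large differences between these groups. In 11 of the 199, artificial and biological low R:FR lay on opposite sides of weed-free with no overlap between groups. In these 11 both treatments differed from weed-free in the test, and the direct difference between the treatments passed too. The comparisons share the weed-free libraries. Of these genes 5 were above weed-free under artificial low R:FR, with the following log2 differences, artificial minus biological. *TRY* differed by 3.53 (adjusted p = 0.000138), *LHCB4.3* by 3.21 (adjusted p = 9.92e-06), *LSU1* by 2.94 (adjusted p = 0.000517), *JAZ9* by 2.56 (adjusted p = 0.000138) and *FLS1* by 1.85 (adjusted p = 0.000138). The other 6 were below weed-free under artificial low R:FR. *DRM1* differed by -5.69 (adjusted p = 0.000502), *HIS1-3* by -3.63 (adjusted p = 9.92e-06), AT3G15450 by -3.62 (adjusted p = 0.00073), *DIN10* by -2.54 (adjusted p = 0.000136), *PHYA* by -1.31 (adjusted p = 0.000254) and *PIF4* by -1.14 (adjusted p = 0.000307). The call against weed-free of *PHYA* passed only with the block and that of AT3G15450 only without it. *HIS1-3* reached 1.95, 2.06 and 2.29 TPM under the LEDs, 43.8, 37.7 and 31.6 TPM beside the grass and 13.2, 13.4 and 23.7 TPM in weed-free plants. *TRY* reached 24.4, 25.1 and 11.7 TPM under the LEDs, 0.880, 0.755 and 0.659 TPM beside the grass and 4.27, 4.32 and 2.03 TPM in weed-free plants.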

How the results depend on the processing

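Without the block, the count of genes higher in artificial low R:FR (456) was 184 with no filter on low values, 1870 with replicate 3 left out of every group, 125 in edgeR and 142 in DESeq2 on recovered reads, 826 with the replicate block and 92 to 980 with each library left out in turn. The count of genes lower (219) was 74 with no filter, 373 after scaling by median of ratios, 1195 with replicate 3 left out of every group, 142 in edgeR, 646 with the replicate block and 33 to 1024 with each library left out. With the block kept, the 826 higher and 646 lower genes became 442 and 228 with no filter, 1524 and 1000 with replicate 3 left out of every group, and 248 to 1288 and 99 to 988 with each library left out. The remaining settings gave counts within 1.5 times. The cause of these shifts was not tested. In the direct comparison, scaling gave 3800 genes higher in artificial than in biological low R:FR in place of 2424. edgeR and DESeq2 tested fewer genes, and 230 of 256 genes called without the block had the same sign in the recovered reads, as did 3401 of 5164 genes overall. Of 222 named or called list genes, the block added 89 calls and ended 1, replicate 3 left out of every group added 120, no filter ended 27 and the fit to the 6 libraries only ended 23 and added 10. Leaving out artificial low R:FR library 1 or 2 ended 33 and 35 calls, and leaving out weed-free library 1, 2 or 3 ended 33, 39 and 21. Of the 64 such genes called without the block, 7 passed in at most 7 of their 14 or 15 alternatives. They are *ZAT12*, *ICS1*, *OHP1*, *PAL1*, *HHO2*, *LCR69* and AT3G15450, whose highest adjusted p was between 0.159 and 0.216. The 25 that passed in all 15 alternatives to the TPM fit without the block include *HFR1*, *PIL1*, *ATHB2*, *PHYB*, *HAT3*, *PDF1.3*, *JAZ6*, *ST2B*, *NIA2*, *LHCB4.3* and *HIS1-3*. Precision is limited by 3 libraries per group and by depth, which was not tested against other limits.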

Other observations

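Some gene groups gave no call. Of 22 tested genes of glucosinolate synthesis, which makes the defence compounds of the cabbage family, none passed without or with the block in limma or in edgeR on recovered reads, 1 was higher and 2 lower at p under 0.05 before adjustment, 1 was higher with replicate 3 left out, and the median log2 fold change was 0.02. Of 5 tested heat shock genes none passed without or with the block in limma or edgeR, none did so at p under 0.05 before adjustment, and 3 were higher with replicate 3 left out of every group. Of 4 tested flowering time genes none passed in limma or edgeR, and 2 were higher at p under 0.05 before adjustment without the block. With replicate 3 left out 1 was higher and 1 lower. *FT*, the mobile flowering signal, and its repressor *FLC* were below the filter and were not tested. *FT* was listed at 1.055, 1.175 and 0.883 TPM under the LEDs, against 0.347, 0 and 0.274 TPM in weed-free plants. *FLC* was listed at 0.741, 0.85 and 0.259 TPM, against 0, 1.32 and 1.378 TPM. In the direct comparison 11 of the 22 glucosinolate genes were higher and 2 lower in artificial than in biological low R:FR. Of all genes 14.1% were higher and 23.5% lower in that comparison before scaling.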
